A study of Mus musculus with 6 samples.

Results

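The Hippo pathway genes described here are the transcriptional co-activators Yap1 and Wwtr1 (which encodes Taz), their DNA-binding partners Tead1, Tead2, Tead3 and Tead4, the kinases Lats1 and Lats2, and the angiomotin-like scaffolds Amotl1 and Amotl2. They were taken by symbol, 10 of the 26264 genes in the count table, and 9 of the 10 passed the filter on low counts. RNA was sequenced in bulk from mouse spinal cord neural stem cell cultures of the PDGFRaGFP reporter line on a C57BL6J background, grown with EGF and FGF2 and separated by fluorescence-activated cell sorting. The GFPpos cells (genotype label PDGFRaGFP/+) gave 3 libraries and the GFPneg cells (genotype label PDGFRaGFP/-) gave 3; the labels name the spinal cord as tissue and give no age. The labels do not explain the 2 genotype labels further, and the study set the fractions against each other to look at how oligodendrocyte precursors and oligodendrocytes are made.

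In the Hippo pathway, the kinases Stk3 and Stk4 (Mst2 and Mst1) activate Lats1 and Lats2, which phosphorylate Yap and Taz and so keep them out of the nucleus. Unphosphorylated Yap and Taz enter the nucleus, bind Tead factors and switch on genes such as Ccn1, Ccn2, Amotl2 and Lats2, the last 2 of which feed back on Yap and Taz. Angiomotin family proteins bind Yap and hold it in the cytoplasm or at cell junctions. In the nervous system, Yap and Taz are known from neural progenitors, astrocytes and ependymal cells.

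Total counts lay between 36846570 and 45207335 in GFPpos libraries and between 31067850 and 32869705 in GFPneg libraries. The sort was visible in Pdgfra itself, at 237, 205 and 245 CPM (read counts scaled to library size with TMM) in GFPpos cells, against 8.04, 19.3 and 13.9 CPM in GFPneg cells of replicates 1, 2 and 3. The summed level of 9 oligodendrocyte precursor markers was 4691 to 4938 CPM in GFPpos and 2266 to 2575 CPM in GFPneg cells. Of these, 9 of 9 were higher, with a median log2 fold change of 2.92. Olig1 was the largest part of the sums, with a mean of 2108 CPM in GFPpos and 1488 CPM in GFPneg cells. Of 10 astrocyte markers 10 were lower, with sums of 400 to 512 CPM in GFPpos and 3046 to 3785 CPM in GFPneg cells. Of 6 neural stem cell markers, Nes and Sox2 among them, 6 were lower, with sums of 1622 to 1839 CPM in GFPpos and 5421 to 6172 CPM in GFPneg cells. Beside these counts, 26.1% of all genes tested were higher and 29.2% lower at an edgeR adjusted p below 0.05. The astrocyte and neural stem cell markers were thus lower, as were 6 of the 9 tested Hippo genes, while Amotl2 was higher and Lats1 and Lats2 were not called. The part of these cell types in the differences of the Hippo genes was not tested. In bulk RNA, fewer cells of a type and less RNA per cell cannot be told apart. Of the other cell types, 6 ependymal markers summed to 4.604 to 6.01 CPM in GFPpos and 11.1 to 17.3 CPM in GFPneg cells, with Tmem212 at 0 in every library. The 6 endothelial markers summed to 1.39 to 2.26 CPM in GFPpos and 2.55 to 9.82 CPM in GFPneg cells, with Cldn5 at 0 in every library. The 6 microglial markers reached at most 1.14 CPM in GFPpos and 2.65 CPM in GFPneg cells, the 6 fibroblast and mural markers at most 0.327 CPM in GFPpos and 2.04 CPM in GFPneg cells, and the 4 Schwann cell markers at most 4.87 CPM in GFPpos and 15.04 CPM in GFPneg cells. The 5 erythroid markers reached at most 0.136 CPM in GFPpos cells and had 0 counts in GFPneg libraries. Of 6 neuronal markers, 3 were tested and higher, and the sum was 32.4 to 39.8 CPM in GFPpos and 7.31 to 13.4 CPM in GFPneg cells, with Slc17a6 at 0 in every library.

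Yap1, Wwtr1 and every Tead gene that could be tested were lower in GFPpos cells, by 3.44-fold to 12.2-fold, while Lats1 and Lats2 differed little and Amotl2 was 4.39-fold higher. Of the 9 tested genes, 6 were lower (Yap1, Wwtr1, Tead1, Tead2, Tead3 and Amotl1), 1 was higher (Amotl2) and 2 were not called by edgeR's quasi-likelihood test at an adjusted p below 0.05. Across all 14554 genes tested, 29.2% were lower and 26.1% higher at that threshold, 55.4% in either direction. Of the 9 genes, 5 were lower by more than 1 on the log2 scale, against 12.3% of all genes tested, and Amotl2 was higher by more than 1, against 6.07%. The median log2 fold change of the 9 was -1.78, beside -0.0058 over all genes tested. The sets of 3 libraries did not overlap for 8 of the 9, all but Lats2; 64.2% of all tested genes had no overlap.

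**Figure D1:**
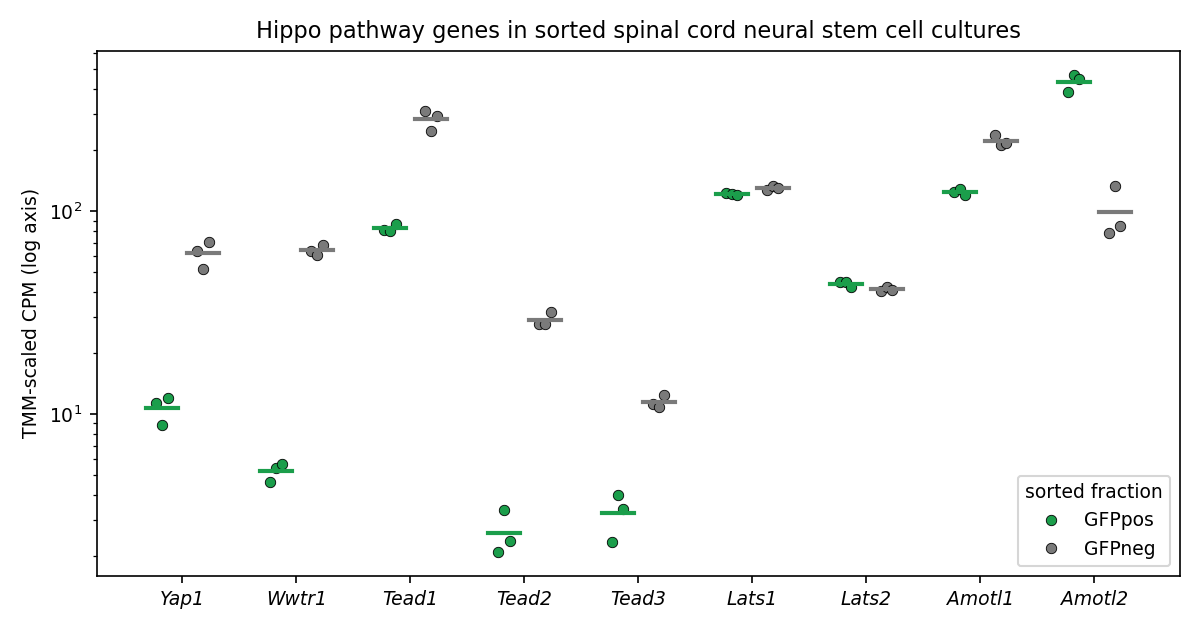
TMM-scaled CPM (log axis) of the 9 tested Hippo pathway genes, with 1 point per library, GFPpos in green and GFPneg in grey, and a bar at each group's mean of 3 libraries. Yap1, Wwtr1 and the 3 plotted Tead genes sit lower in GFPpos libraries, Lats1 and Lats2 lie close together, and Amotl2 is at 387 to 472 CPM in GFPpos and 78.4 to 134 CPM in GFPneg libraries; Tead4, with 0 counts in 1 library, is not drawn.

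Yap1 (Entrez 22601) stood at 11.3, 8.83 and 12.02 CPM in GFPpos cells, against 63.8, 52.0 and 70.9 CPM in GFPneg cells. The highest GFPpos library lay far below the lowest GFPneg library. On the log2 scale the difference was -2.54 (SE 0.15, edgeR adjusted p = 7.80e-06). Wwtr1 (Entrez 97064), the paralog that encodes Taz, stood at 4.63, 5.45 and 5.66 CPM in GFPpos cells, against 63.7, 60.8 and 67.9 CPM in GFPneg cells. Libraries of a group were tightly placed and the groups were well apart. The fitted value was -3.61 (log2, SE 0.10, edgeR adjusted p = 1.59e-06), with differences of -3.78, -3.48 and -3.58 within the library numbers 1, 2 and 3.

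Levels of different genes were compared as CPM per kilobase of annotated exons. On that scale the log2 ratio of Yap1 to Wwtr1 was 0.34, -0.26 and 0.13 in GFPpos libraries, close to equal levels. In GFPneg libraries it was -0.95, -1.18 and -0.89, and Wwtr1 was the more abundant of the pair per kilobase in each. The mean ratios were 0.07 ± 0.30 in GFPpos and -1.01 ± 0.15 in GFPneg cells (SD, n = 3 each; exact two-sided permutation p = 0.1, the smallest that 3 against 3 allows, and 0.125 adjusted over 5 paralog ratios). With libraries paired by number the exact p was 0.25, the smallest that 3 pairs allow, so neither test of a ratio can pass the threshold. The 2 co-activators together came to 2.26 ± 0.20 CPM per kilobase in GFPpos and 20.1 ± 1.75 in GFPneg cells (SD, n = 3 each), 8.92-fold more in GFPneg. Without division by length, Yap1 and Wwtr1 averaged 10.7 and 5.25 CPM in GFPpos and 62.3 and 64.1 CPM in GFPneg cells. The order of the pair within a fraction thus depends on the lengths used, while the difference of their ratio between fractions does not.

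Among the DNA-binding partners, Tead1 (Entrez 21676) was the most abundant per kilobase in both fractions. It stood at 81.0, 80.4 and 86.9 CPM in GFPpos cells, against 311, 249 and 295 CPM in GFPneg cells, and the groups did not overlap (log2 fold change -1.78, SE 0.09, edgeR adjusted p = 3.58e-06). Tead2 (Entrez 21677), known as a factor of early embryonic and neural progenitor cells, stood at 2.098, 3.36 and 2.37 CPM in GFPpos cells, against 27.8, 27.7 and 31.8 CPM in GFPneg cells. The fitted difference was -3.47 on the log2 scale (SE 0.17, edgeR adjusted p = 3.87e-06), the steepest of the 3 Tead genes tested. Tead3 (Entrez 21678) stood at 2.34, 4.02 and 3.40 CPM in GFPpos cells, against 11.3, 10.8 and 12.4 CPM in GFPneg cells (log2 fold change -1.81, SE 0.19, edgeR adjusted p = 1.29e-04). Tead4 (Entrez 21679), known for its role in the trophectoderm of the embryo, did not pass the filter, with 5, 0 and 6 counts in GFPpos libraries and 7, 1 and 5 counts in GFPneg libraries.

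Per kilobase, the share of Tead1 among the 4 Tead genes was 85.3% ± 2.99 in GFPpos and 72.8% ± 2.15 in GFPneg cells, and that of Tead2 was 7.60% ± 1.83 in GFPpos and 21.2% ± 1.82 in GFPneg cells (SD, n = 3 each). The difference was 12.5 percentage points for Tead1 and -13.6 for Tead2, and 5.85 and -6.04 when shares were taken from raw counts. The share of Tead3 was 6.74% ± 1.58 in GFPpos and 5.95% ± 0.39 in GFPneg cells, which overlapped. The log2 ratio of Tead1 to Tead2 was 3.77, 3.08 and 3.70 in GFPpos libraries and 1.98, 1.67 and 1.71 in GFPneg libraries (exact two-sided permutation p = 0.1, the smallest possible, 0.125 adjusted). The ratio of Tead1 to Tead3 was 3.69 ± 0.40 in GFPpos and 3.61 ± 0.14 in GFPneg cells (SD, n = 3 each; exact permutation p = 0.8). A difference of 0.07 between the fractions is smaller than either spread. The ratio with Tead4 could not be formed in the library with 0 counts.

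The kinases that act on Yap and Taz were at nearly the same level in both fractions. Lats1 (Entrez 16798) stood at 123, 122 and 120 CPM in GFPpos cells, against 128, 133 and 130 CPM in GFPneg cells. Its log2 fold change was -0.10 with a 95% interval of -0.21 to 0.0028 (edgeR adjusted p = 0.0891). All 3 GFPpos libraries were below the GFPneg libraries, and Lats1 passed the threshold when a trend with gene length and GC content was removed, an alternative added after seeing the data (log2 fold change -0.16, edgeR adjusted p = 0.0113). Lats2 (Entrez 50523) stood at 44.6, 44.9 and 42.4 CPM in GFPpos cells, against 40.4, 42.5 and 41.0 CPM in GFPneg cells, and the groups overlapped. Within the library numbers 1, 2 and 3 it was higher in GFPpos cells by 0.14, 0.08 and 0.05 on the log2 scale. Its log2 fold change was 0.09 with a 95% interval of -0.04 to 0.23 (edgeR adjusted p = 0.222). The log2 ratio of Lats1 to Lats2 per kilobase was 1.40 ± 0.03 in GFPpos and 1.59 ± 0.01 in GFPneg cells (SD, n = 3 each; exact two-sided permutation p = 0.1, the smallest possible, 0.125 adjusted). The transcripts of the 2 Lats genes summed to 10.2 ± 1.02 times those of Yap1 and Wwtr1 per kilobase in GFPpos cells and to 1.19 ± 0.13 times in GFPneg cells (SD, n = 3 each).

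The angiomotin family moved in both directions. Amotl2 (Entrez 56332), a scaffold that binds Yap and is itself a target of Yap and Tead in other cells, stood at 387, 472 and 448 CPM in GFPpos cells, against 78.4, 134 and 85.1 CPM in GFPneg cells. All GFPpos libraries were higher, and replicate 2 was the highest library of each fraction. The fitted difference of Amotl2 was 2.14 (log2, SE 0.19, edgeR adjusted p = 5.69e-05), and 2.42 without GFPneg replicate 2. Amotl1 (Entrez 75723) stood at 124, 128 and 120 CPM in GFPpos cells, against 237, 213 and 218 CPM in GFPneg cells (log2 fold change -0.84, SE 0.06, edgeR adjusted p = 1.56e-05). Amot (Entrez 27494), the founding member of the family, stood at 6.05, 8.61 and 7.13 CPM in GFPpos cells, against 56.6, 46.8 and 64.5 CPM in GFPneg cells (log2 fold change -2.94, SE 0.16, edgeR adjusted p = 5.31e-06).

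Amot, Amotl1 and Amotl2 together came to 82.4 ± 7.21 CPM per kilobase in GFPpos and 44.5 ± 3.02 in GFPneg cells (SD, n = 3 each). Amotl2 was 83.9% ± 1.28 of that sum in GFPpos and 35.02% ± 8.11 in GFPneg cells, Amotl1 15.0% ± 1.34 in GFPpos and 49.9% ± 5.50 in GFPneg cells, and Amot 1.04% ± 0.10 in GFPpos and 15.1% ± 3.20 in GFPneg cells. The log2 ratio of Amotl1 to Amotl2 was -2.48 ± 0.15 in GFPpos and 0.53 ± 0.48 in GFPneg cells (SD, n = 3 each; exact two-sided permutation p = 0.1, the smallest possible, 0.125 adjusted).

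**Figure D2:**
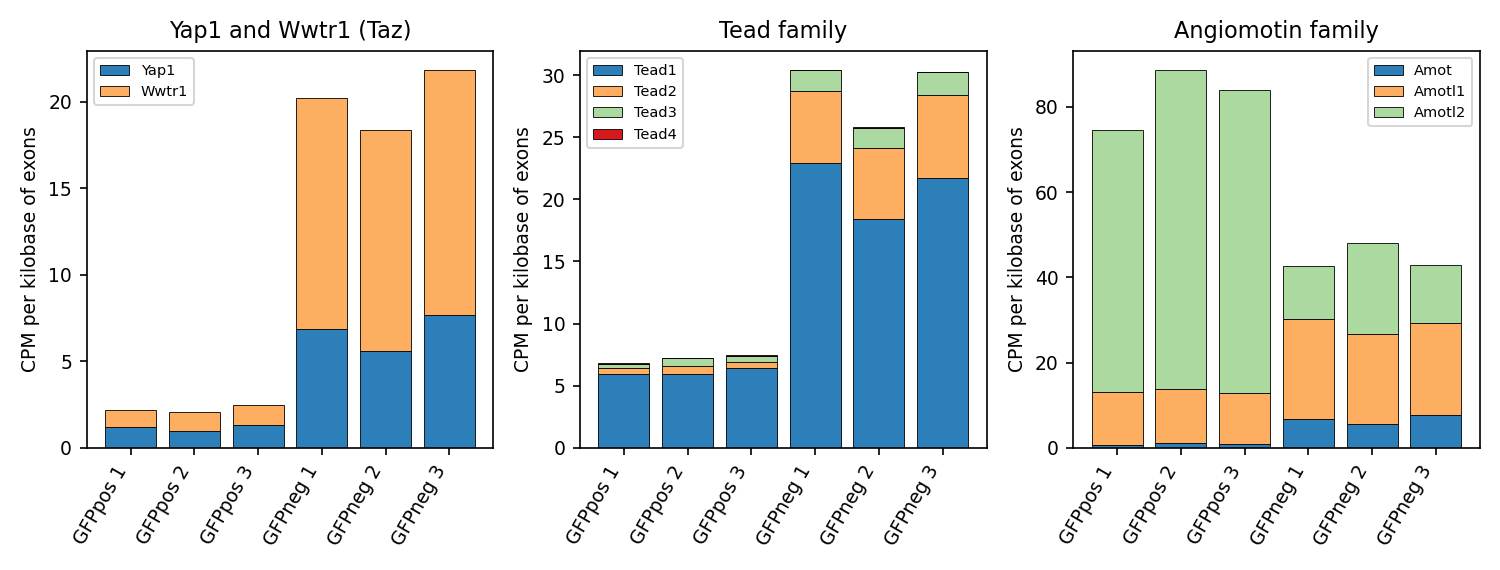
Stacked CPM per kilobase of annotated exons in each library (GFPpos 1 to 3, then GFPneg 1 to 3), for Yap1 and Wwtr1, the 4 Tead genes, and Amot, Amotl1 and Amotl2, each on its own axis from 0. The Yap1 and Wwtr1 bars reach 2.09 to 2.48 in GFPpos and 18.4 to 21.9 in GFPneg libraries, the Tead bars 6.79 to 7.45 in GFPpos and 25.8 to 30.4 in GFPneg libraries, and the angiomotin bars 74.6 to 88.8 in GFPpos and 42.7 to 48.0 in GFPneg libraries.

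Ordered by CPM per kilobase, GFPpos cells had Amotl2 first at 69.2, then Lats1 at 16.7, Amotl1 at 12.3, Lats2 at 6.31, Tead1 at 6.10, Yap1 at 1.16, Wwtr1 at 1.10, Tead2 at 0.544, Tead3 at 0.485 and Tead4 at 0.028. Neighbours in that order whose libraries overlapped were Lats2 and Tead1, Yap1 and Wwtr1, and Tead2 and Tead3. In GFPneg cells the order was Amotl1 at 22.1, Tead1 at 21.0, Lats1 at 17.9, Amotl2 at 15.8, Wwtr1 at 13.4, Yap1 at 6.72, Tead2 at 6.08, Lats2 at 5.92, Tead3 at 1.71 and Tead4 at 0.038. There, Amotl1 overlapped with Tead1, Lats1 with Amotl2, Amotl2 with Wwtr1, Yap1 with Tead2, and Tead2 with Lats2. Amotl2 thus stood clear of every other gene of the set in GFPpos cells and in the middle of a close group in GFPneg cells. Both orders depend on the exon lengths used.

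Other pathway genes upstream of Yap and Taz were called in both directions, mostly by small amounts. Of 7 core kinases and adaptors, 4 were lower and 2 higher, with a median log2 fold change of -0.17; that is 85.7% called, beside 55.4% of all genes tested. Stk3 averaged 26.0 ± 1.31 CPM in GFPpos and 34.7 ± 0.35 CPM in GFPneg cells (SD, n = 3 each), a log2 fold change of -0.42, and Mob1a, the adaptor that activates Lats kinases, had -0.39. Stk38l, a kinase related to Lats, had -0.43, while Stk4, the paralog of Stk3, was higher by 0.22. The count of 2 higher was 0 without replicate 3, and 1 without replicate 1 or without GFPpos replicate 3; Stk4 then had an edgeR adjusted p = 0.112 without replicate 3.

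Of 19 listed upstream activators 18 were tested, 8 lower and 6 higher (77.8% called, beside 55.4% of all genes), with a median of -0.16. The protocadherin Fat1 averaged 321 ± 13.0 CPM in GFPpos and 714 ± 30.7 CPM in GFPneg cells (SD, n = 3 each; log2 fold change -1.15, SE 0.06, edgeR adjusted p = 4.25e-06). Wwc1 (Kibra), a scaffold that brings Lats to its activators, had -1.08. Tnik, a kinase of the Map4k family, was higher by 0.64 and Dchs1, the cadherin that binds Fat4, by 0.61. Fat4 itself was lower, with a log2 fold change of -1.45.

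Of 17 genes that restrain the kinases, 5 were higher and 2 lower, with a median of 0.06. The 41.2% called is below the 55.4% of all genes, and the number higher is near the 26.1% of all genes. The 2 lower genes were the LIM protein Ajuba, which binds and restrains Lats, at 0.711 ± 0.09 CPM in GFPpos and 7.73 ± 2.38 CPM in GFPneg cells (SD, n = 3 each; log2 fold change -3.44, edgeR adjusted p = 2.62e-05), and the kinase Stk26 at -3.47, with at most 1.15 CPM in any library. The striatins Strn4 and Strn3, which bring a phosphatase to Stk3 and Stk4, were higher by 0.54 and 0.37. The number higher was 3 without replicate 1 or without GFPneg replicate 1, and 2 without replicate 3. Of 9 listed polarity genes 8 were tested, 3 lower and 3 higher (75% called, beside 55.4% of all genes), with a median of -0.18. Crb1, a Crumbs protein of the apical membrane, averaged 6.77 ± 0.95 CPM in GFPpos and 2.06 ± 0.56 CPM in GFPneg cells (SD, n = 3 each; log2 fold change 1.72), while Mpp5 (Pals1), which binds Crumbs, and Llgl1 had -0.88 and -0.32. Patj, another partner of Pals1, was higher by 0.51, and 1 polarity gene was higher without replicate 3, where Patj had an edgeR adjusted p = 0.0668.

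Of 15 listed genes whose proteins bind Yap, Taz or Tead, 13 were tested, 8 lower and 1 higher (69.2% called, beside 55.4% of all genes), with a median of -0.38. Amot, described above, was among the lower genes. The higher gene was Ywhag, a 14-3-3 protein of the kind that holds phosphorylated Yap in the cytoplasm, by 0.36.

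**Figure D3:**
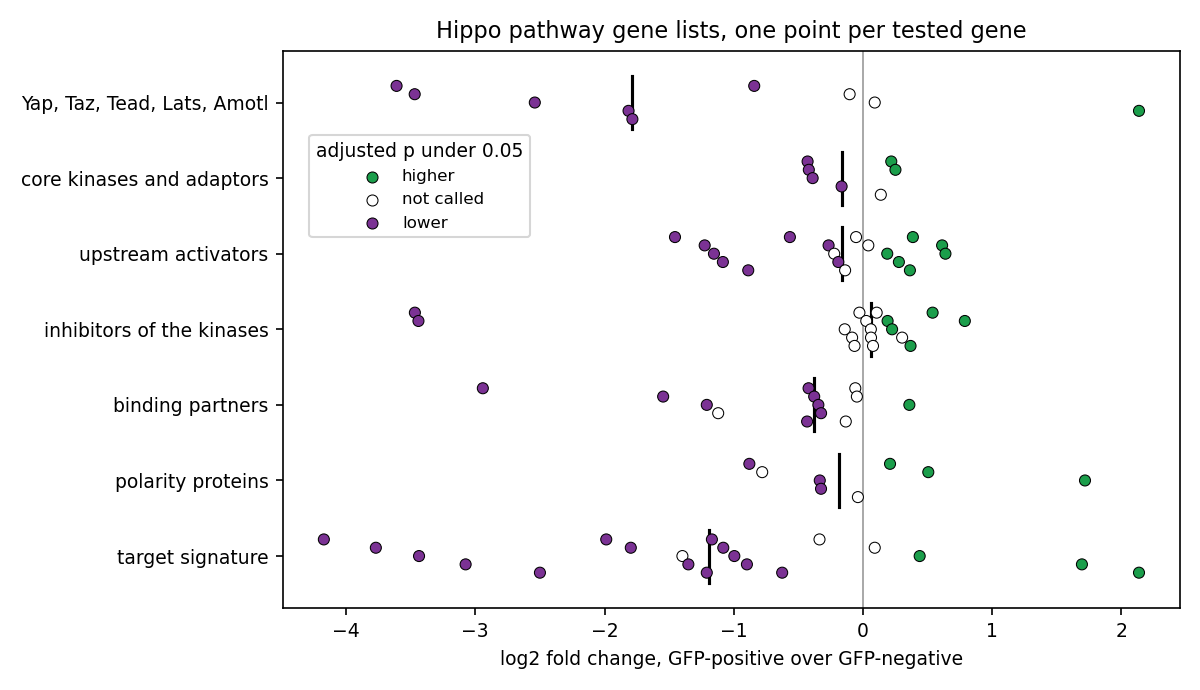
Log2 fold change (GFP-positive over GFP-negative) of each tested gene in 7 Hippo pathway lists, with a vertical bar at each list's median; green and purple mark genes called higher and lower at an edgeR adjusted p under 0.05, and white marks genes not called. The medians lie at -1.78 for the 9 tested Yap, Taz, Tead, Lats and Amotl genes, at -1.19 for the target signature and between -0.38 and 0.06 for the other 5 lists.

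The target genes were read from a signature of 22 genes known from human cancer cells, which includes Amotl2 and Lats2. Of the other 20 genes 18 were tested, with a median log2 fold change of -1.28. In GFPpos cells 14 were lower and 2 higher, beside 29.2% lower and 26.1% higher of all genes tested. On the log2 scale 11 of the 18 were lower by more than 1, against 12.3% of all genes tested. Fjx1, a secreted protein related to Four-jointed, averaged 23.9 ± 2.54 CPM in GFPpos and 83.0 ± 3.11 CPM in GFPneg cells (SD, n = 3 each; log2 fold change -1.80, SE 0.08, edgeR adjusted p = 3.19e-06). Tgfb2, a TGF-beta ligand, averaged 10.99 ± 0.51 CPM in GFPpos and 62.2 ± 9.76 CPM in GFPneg cells (log2 fold change -2.50), and Rbms3, an RNA-binding protein, had -1.08.

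Ccn1 and Ccn2, the matricellular genes most used as readouts of Yap and Taz, were named after their values were seen. Ccn1 stood at 19.996, 20.99 and 17.7 CPM in GFPpos cells, against 53.6, 39.5 and 39.0 CPM in GFPneg cells, without overlap (log2 fold change -1.17, SE 0.14, edgeR adjusted p = 1.94e-04). Ccn2 was scarce in both, with 3, 9 and 6 counts in GFPpos libraries and 51, 62 and 45 counts in GFPneg libraries (log2 fold change -3.44, SE 0.37, edgeR adjusted p = 1.35e-04). Ankrd1, another common readout, had 0 counts in all 6 libraries, and 3 counts would be at most 0.0972 CPM. The 2 higher genes outside the set were Nt5e, the ectoenzyme CD73, by 1.69, and Asap1, an Arf regulator, by 0.44.

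Amotl2 held the largest part of the summed CPM of the signature in GFPpos cells. In GFPneg cells Asap1 averaged more, at 115 CPM against 99.1 CPM for Amotl2. These sums were of CPM and not per kilobase. The 22 genes summed to 838 ± 63.2 CPM in GFPpos and 835 ± 40.8 CPM in GFPneg cells (SD, n = 3 each), a difference smaller than the spread. Without Amotl2 the sum was 402 ± 26.7 CPM in GFPpos and 736 ± 14.4 CPM in GFPneg cells. Amotl2 held 51.9% ± 2.15 of the sum in GFPpos and 11.8% ± 2.98 in GFPneg cells.

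**Figure D4:**
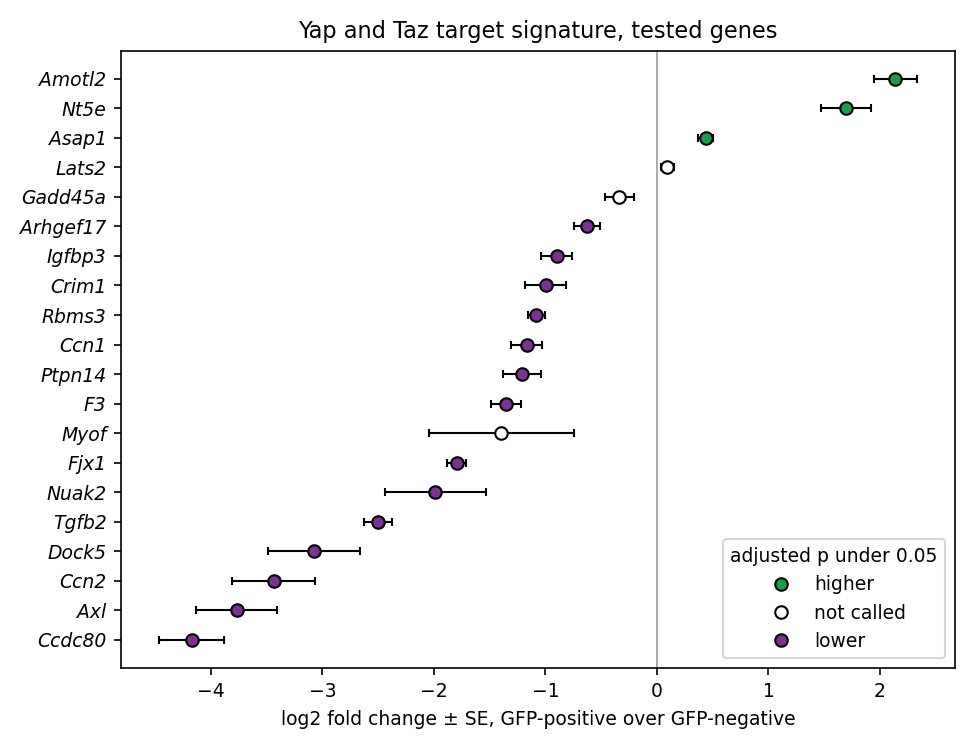
Log2 fold change ± SE (GFP-positive over GFP-negative, edgeR, 3 libraries per group) of the 20 tested genes of the Yap and Taz target signature, ordered by value; green is called higher, purple lower, white not called. Amotl2 at 2.14 is the highest and Ccdc80 at -4.17 the lowest.

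The promoters were searched for the core of the MCAT element that Tead factors bind. Promoter sequences (RefSeq, build GRCm38.p6, 250 bases before to 50 after a start site) matched 8 of the 10 genes and 15 of the 22 signature genes by Entrez ID. AGGAATG, on either strand, occurred in 4 of the 8 and in 5 of the 15, beside 6.15% of all 27025 genes in the table; Amotl2 is counted in both. The shorter GGAATG, which AGGAATG contains, occurred in 5 of the 8 and 7 of the 15, beside 16.6% of all genes. A gene was counted if any of its promoters held the letters, and some genes had several. Counted by promoter, AGGAATG occurred in 5.36% of all 32851 promoters. A match describes letters and is not a site of binding. The windows below hold the match in capitals with 40 bases on each side, read 5′ to 3′ on the gene's strand, for the 4 genes of the set with a match and for Ccn1; CATTCCT is AGGAATG on the other strand.
Yap1, chr9:8004692-8004778, minus strand: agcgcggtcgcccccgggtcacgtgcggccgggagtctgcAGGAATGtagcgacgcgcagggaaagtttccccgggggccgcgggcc
Wwtr1, chr3:57576001-57576087, minus strand: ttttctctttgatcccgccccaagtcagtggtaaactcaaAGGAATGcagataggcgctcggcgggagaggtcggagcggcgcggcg
Tead3, chr17:28350942-28351028, minus strand: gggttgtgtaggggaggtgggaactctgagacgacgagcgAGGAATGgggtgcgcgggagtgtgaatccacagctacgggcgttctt
Amotl2, chr9:102717699-102717785, plus strand: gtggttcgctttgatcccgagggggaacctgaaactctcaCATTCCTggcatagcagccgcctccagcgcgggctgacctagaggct
Ccn1, chr3:145650042-145650128, minus strand: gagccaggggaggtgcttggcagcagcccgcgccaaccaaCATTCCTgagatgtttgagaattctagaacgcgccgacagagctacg
The first base of the match lies at -142 in Yap1, -137 in Wwtr1, -183 in Tead3, -65 in Amotl2 and -103 in Ccn1, counted from the start site used for the window. Wwtr1 had another start site, from which the match lies at -171. Tead3 had other start sites whose promoters did not hold AGGAATG. The match was thus present upstream of Yap1, Wwtr1, Tead3 and Ccn1, which were lower in GFPpos cells, and of Amotl2, which was higher. It was absent from the promoters of Tead2 and Amotl1, also lower, and of Lats1 and Lats2, not called. Tead1 and Tead4 had no promoter sequence. Ccn1 was shown as an example. Of the signature genes outside the set, Axl and Ptpn14, both lower, and Ankrd1, which was not tested, also had a match.

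The genes most like Yap1, Wwtr1 and Tead1 over the 6 libraries were ranked by the root mean square distance between log2 CPM profiles, each centred on its own mean, among 9982 other genes. For Yap1 they were Egfr, the EGF receptor, Adamts12, a matrix metalloprotease, and Cacnb2, a calcium channel subunit, at distances of 0.10, 0.10 and 0.12 on the log2 scale. Egfr averaged 74.7 ± 5.23 CPM in GFPpos and 439.6 ± 72.0 CPM in GFPneg cells (SD, n = 3 each). For Wwtr1 they were Lrig1, a membrane protein that restrains receptor tyrosine kinases, Cdc42ep1, a Cdc42 effector, and Sparc, a matrix glycoprotein, at 0.11, 0.13 and 0.13. Lrig1 averaged 39.1 ± 3.45 CPM in GFPpos and 470 ± 86.5 CPM in GFPneg cells (SD, n = 3 each). For Tead1 they were Baiap2, Tmbim1 and Txn1, at 0.05, 0.06 and 0.07. The ranking itself fixes that these genes share the direction of the gene they were matched to.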

How the data were processed

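The authors deposited raw read counts per gene, with no normalization, per the file headers. The submitters' processing notes name TopHat2 2.1.1, featureCounts 2.0.0 and the mm39 build. How strand and multi-mapping reads were handled is not stated by the labels or headers, so reads of overlapping antisense genes may be mixed. The labels' protocols name Takara's SMART-Seq Stranded chemistry.

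Counts of all genes were fitted with edgeR 4.0.16 (TMM scaling, filterByExpr, quasi-likelihood F test, group only, 14554 genes tested) and Benjamini-Hochberg adjustment, with 0.05 as the threshold. Standard errors were obtained from the log2 fold change and F. The fit was tested on simulated counts in which far fewer genes changed than were called here. That test does not cover so broad a change. Alternatives used DESeq2 1.42.0 and limma 3.58.1, among others. Exon lengths came from GENCODE M21 (GRCm38) by Entrez number. Counts may hold PCR copies, so depth can overstate the number of independent molecules.

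The 3 library numbers are shared by the fractions, and the labels do not say what they stand for, and nothing says that the libraries came from separate animals or cultures; each p therefore covers only library-to-library spread, possibly technical. Deviations of same-numbered libraries correlated at 0.271, 0.433 and 0.233. The highest correlations of the same GFPpos libraries with a GFPneg library of another number were 0.037, -0.216 and 0.177. The main fit left the numbers out, so its p-values do not use this pairing. The replicate block, which pairs the samples by number, was run as an alternative. No 2 libraries of a fraction were alike within sampling error (chi-square over its degrees of freedom 9.83 to 34.2).

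The genes and lists were chosen with earlier results of these data known. Named from each list were the 3 genes with the smallest p and the called gene of opposite direction with the smallest p, and, for Yap1, Wwtr1 and Tead1, the 3 nearest profiles with mean log2 CPM of at least 3. A gene that this rule names is not reported here.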

Additional observations from a re-analysis of the deposited data

How the results depend on the processing

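Across 20 alternative settings (RLE, upper-quartile and total-count scaling, the median of all genes set to 0, other low-count filters, DESeq2, limma-voom, the replicate block, leaving out libraries or numbers, and 2 settings with a length and GC trend removed, added after seeing the data), Yap1, Wwtr1, Tead1, Tead2, Tead3, Amotl1 and Amotl2 kept their direction and call. Yap1 ranged from -2.65 to -2.40, Wwtr1 from -3.67 to -3.52 and Amotl2 from 1.99 to 2.42. With the replicate block 6 genes were lower and 1 higher, as in the fit without it, and alone it changed no call of a gene named here. It moved some list counts by 1: lower were 3 core kinases and adaptors in place of 4, 9 upstream activators in place of 8, 9 binding partners in place of 8 and 15 of the full signature in place of 14. The core count was also 3 with DESeq2, with no low-count filter and with any library or number left out. Lats1 was called with the length and GC trend removed, alone (-0.16, edgeR adjusted p = 0.0113) and with the replicate block (-0.16, edgeR adjusted p = 0.0271), and not in the other 18. Leaving out libraries moved the higher count of the core kinases between 0 and 3, of the kinase inhibitors between 2 and 5 and of the polarity genes between 1 and 3; the cause was not tested. With a CPM of at least 1 in 3 libraries, 1 inhibitor was lower, since Stk26 was then not tested. Without replicate 1 the difference of the Tead1 to Tead3 ratio was -0.051, within a range of -0.051 to 0.21 over the replicates left out. As raw counts instead of counts per kilobase, the share of Tead1 differed by 5.85 percentage points in place of 12.5, and that of Tead2 by -6.04 in place of -13.6. Depth limits Tead4, Ccn2, Ankrd1 and Stk26, which had few counts or none.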
